A study of Macaca mulatta with 21 samples.

Results

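The genes described here belong to families of enzymes that add methyl groups to lysines of histones or take them off. Some members, such as SETD3 and SETD6, are known for other substrates. The genes were chosen by name: symbols of the KDM, KMT, SETD, SETDB, EHMT, SUV39H, NSD and SMYD families on the array's annotation, without KDM2B. This gave 38 members of 14133 genes, 25 of them methyltransferases or other SET-domain genes and 13 demethylases. The families are not complete here: KDM5B, KDM6A, NSD2 and SETD1B are among the genes that the rule did not find. Each gene was read from its brightest probe set, a group of short probes for a single transcript, by mean over all 21 arrays. A gene was tested where at least 3 arrays read log2 5 or more. That left 36 members among 11143 genes. The members left out were KMT5C, a writer of H4K20 trimethylation that read 3.97 to 4.67 on the log2 scale, and SMYD1, a muscle methyltransferase that read 3.27 to 3.66.

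Messenger RNA of rhesus macaque cells was measured on Affymetrix arrays, with 3 arrays (A, B and C, labelled as biological replicates) for each of 7 lines. ORMES23, a male line, was derived from an embryo made by fertilization in vitro. The cloned lines CRES-1, a male line, and CRES-3, a female line, came from embryos made by somatic cell nuclear transfer, in which a body cell's nucleus is placed in an enucleated egg. RiPS1, RiPS2 and RiPS3 were induced from skin fibroblasts with 4 retroviral factors: OCT4, SOX2, KLF4 and cMYC. The donor cells of RiPS1 were those of a male fetus, those of RiPS2 of a female at 10 years and those of RiPS3 of a female at 8 years. A female at 8 years was also the source of the skin fibroblasts used as the somatic group. Mouse embryonic fibroblast feeders were used for every line, the fibroblasts included, and RNA of the pluripotent lines came from picked undifferentiated colonies. Each line is a single derivation, so p-values here measure the spread between arrays of the lines at hand and not between independent derivations. The series title concerns X inactivation. For these genes the lines allow comparisons of each pluripotent line with fibroblasts, of cloned and induced lines with the embryo-derived line and with each other, and of labelled sexes.

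Lysine methylation on histone tails marks chromatin states. Methylation of H3K4 marks promoters and enhancers, that of H3K36 marks transcribed gene bodies, and trimethylation of H3K9 and H4K20 marks silent chromatin. SET-domain proteins write most of these marks. The KDM1 enzymes, which use FAD, and the Jumonji enzymes, which use iron and 2-oxoglutarate, erase them. In reprogramming, H3K9 methylation of the donor nucleus is a known barrier, and H3K9 demethylases are known to ease it.

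The labels were checked against marker genes. The 6 pluripotency markers on the platform averaged 11.24 to 11.38 (log2) in the pluripotent lines and 4.15 in the fibroblasts, where all 6 were under log2 5. The 14 fibroblast markers averaged 10.32 in the fibroblasts and 6.91 to 7.61 in the pluripotent lines, where 4 of them were under log2 5. In the fibroblasts 1 of them, TWIST2, was also under log2 5 (4.58). DCN did not set the groups apart, with 6.44 in the fibroblasts and 6.30 to 6.82 in the pluripotent lines. The 10 markers of differentiating cells averaged 6.14 to 7.41 in the pluripotent lines, with an SD of up to 0.76 within a line, and 5.70 in the fibroblasts. Among these, GATA6 was highest in the fibroblasts, with 9.04 against 6.42 to 8.77. The 5 markers of other skin cells averaged 4.75 to 5.37 in all 7 lines. One of them, PECAM1, an adhesion protein of endothelial cells, averaged 7.93 in the fibroblasts and 5.24 to 5.91 in the pluripotent lines, while CDH5, another endothelial gene, averaged 5.14 to 5.41 in all 7 lines; their part in the results was not tested. Proliferation markers set the fibroblast arrays apart from each other: the mean of 7 read 10.21 on array A, 7.85 on B and 9.10 on C, against line means of 10.98 to 11.28 in the pluripotent lines. In bulk RNA, fewer cells of a type and less RNA per cell cannot be told apart.

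Most members were higher in the pluripotent lines than in the fibroblasts. H3K9 erasers and writers, NSD1, SETD5 and KDM1A were among those that rose, and KDM1B and SMYD2 fell. The words rose and fell are used only of called genes, those with a limma adjusted p under 0.05 that also differed 2-fold or more. All 6 of these comparisons share the same fibroblast arrays, so they are not independent of each other. In CRES-3, 15 of the 36 members rose (41.7%, against 19.1% of all genes tested) and 2 fell (5.56%, against 14.2%). In ORMES23, 13 members rose (36.1%, against 18.5%) and 2 fell (14.1% of all genes fell). In RiPS2, 12 rose (33.3%, against 17.2%) and 3 fell (8.33%, against 14.6%). The embryo-derived line and RiPS2 thus lay close together below CRES-3. RiPS1 had 11 members up (30.6%, against 19.3%) and 2 down (13.5% of all genes fell). RiPS3 had 10 up (27.8%, against 18.3%) and 2 down (14.2% of all genes fell). CRES-1 had the fewest, with 8 up (22.2%, against 16.4%) and 2 down (14.2% of all genes fell). The median log2 difference of the members ran from 0.62 in CRES-1 to 0.80 in CRES-3, and that of all genes tested from 0.02 to 0.05. These shares describe the list and carry no test of it. They rest on the brightest probe sets. With the mean of a gene's probe sets, 9, 6, 11, 8, 10 and 7 members rose in ORMES23, CRES-1, CRES-3, RiPS1, RiPS2 and RiPS3. The share of all genes was not counted in that setting.

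**Figure D1:**
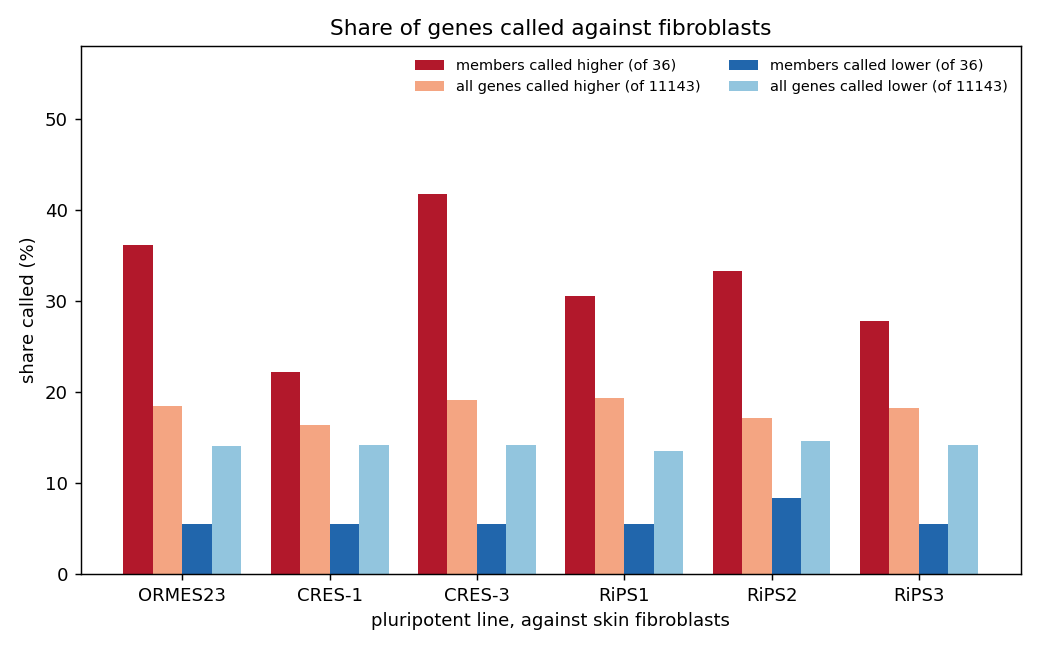
Share of the 36 tested members (dark bars) and of all 11143 tested genes (pale bars) called higher (red) or lower (blue) than skin fibroblasts in each pluripotent line, in percent. Read from the brightest probe sets, the share of members called higher ran from 22.2% in CRES-1 to 41.7% in CRES-3. It exceeded that of all genes in each line, while the share called lower was at most 8.33%.

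Without the fold limit, 24 of the 36 members passed upward and 3 downward in ORMES23 (34.3% and 29.2% of all genes). These counts were 22 and 3 in CRES-1 (32.2% and 27.2%), and 26 and 3 in CRES-3 (36.2% and 28.5%). Among the induced lines they were 28 and 3 in RiPS1 (36% and 29.2%), 23 and 4 in RiPS2 (33.8% and 27.2%), and 24 and 3 in RiPS3 (35% and 28%). In all 6 lines, 7 members rose (19.4%, against 12.7% of all genes). In all 6, 2 members fell (5.56%, against 10.5%). Another 17 members were called in none of the 6 lines, for which the share of all genes was not counted. Of these, KDM2A, KDM8, KMT2C and SETD4 missed the adjusted p as well in every line.

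**Figure D2:**
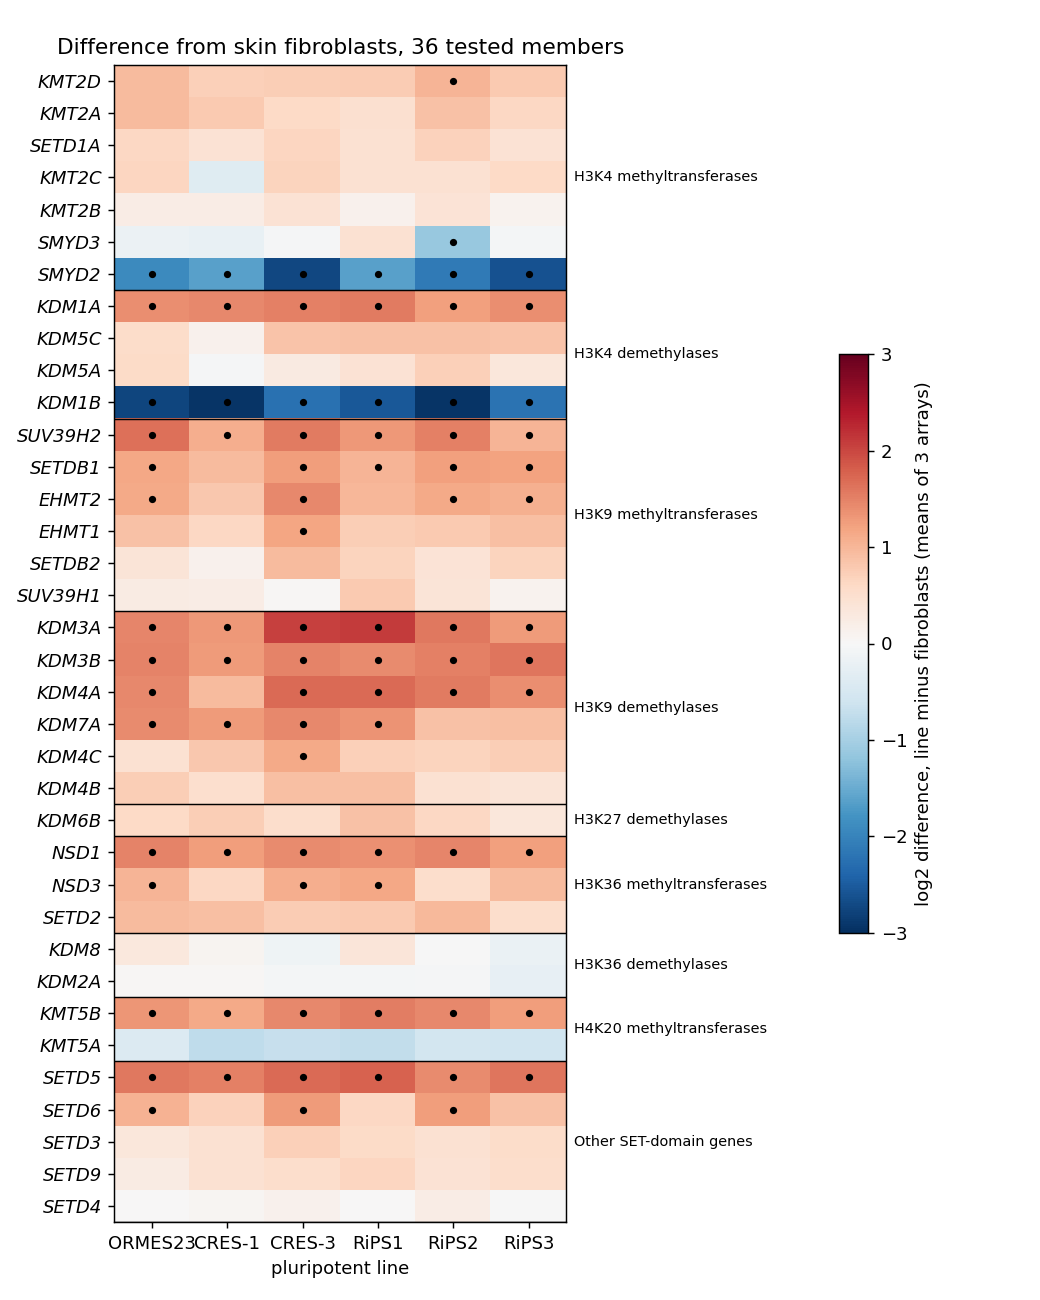
Log2 difference between each pluripotent line (columns) and the skin fibroblasts for the 36 tested members (rows), grouped by the residue and the direction of the reaction. Red is higher and blue lower than the fibroblasts, and a dot marks a called difference; the H3K9 demethylases are red across all lines, and KDM1B and SMYD2 are blue across all lines.

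Among the erasers of H3K4 methylation, the 2 paralogues of the KDM1 family moved in opposite directions, as read from their brightest probe sets. KDM1A (LSD1), the FAD-dependent demethylase of the CoREST repressor complex, rose in every pluripotent line, and KDM1B (LSD2), known for its part in setting up maternal imprints in oocytes, fell in every one. KDM1A read 10.54, 10.24 and 10.32 in ORMES23, 10.39, 10.48 and 10.41 in CRES-1, 10.47, 10.56 and 10.45 in CRES-3, 10.63, 10.61 and 10.31 in RiPS1, 10.01, 10.61 and 9.95 in RiPS2, 10.27, 10.47 and 10.39 in RiPS3, and 9.02, 9.13 and 8.78 in the fibroblasts (log2). No pluripotent array overlapped the fibroblast arrays, and RiPS2 had the widest spread. KDM1A differed from the fibroblasts by 1.39 in ORMES23, 1.45 in CRES-1, 1.52 in CRES-3, 1.55 in RiPS1, 1.22 in RiPS2 and 1.40 in RiPS3 (log2, SE 0.15), 2.32 to 2.92-fold, with limma adjusted p of 8.5e-08 to 1.75e-06. KDM1A has a single probe set here.

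KDM1B read 6.63, 6.03 and 5.85 in ORMES23, 5.94, 6.11 and 5.90 in CRES-1, 6.61, 6.66 and 6.83 in CRES-3, 6.61, 6.82 and 5.71 in RiPS1, 5.73, 6.49 and 5.77 in RiPS2, 6.38, 7.35 and 6.37 in RiPS3, and 8.62, 9.30 and 8.87 in the fibroblasts. Every pluripotent array lay below every fibroblast array, although array B of RiPS3 stood well above A and C of that line. The log2 differences of KDM1B were -2.76 in ORMES23, -2.94 in CRES-1, -2.23 in CRES-3, -2.55 in RiPS1, -2.93 in RiPS2 and -2.22 in RiPS3 (SE 0.31), which is 4.67 to 7.70-fold lower, with limma adjusted p of 1.86e-07 to 5.31e-06. Its other probe sets differed among themselves. A second one averaged 6.13 over the pluripotent lines and 5.43 in the fibroblasts, a difference of 0.70 upward. Of its further probe sets, one differed by -0.01 and another, under the filter, by -1.17. With all its probe sets averaged, KDM1B fell in CRES-1 alone (-1.07, limma adjusted p 9.7e-05) and differed by -0.94 to -0.47 in the other 5 lines, under the fold limit.

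KDM5A and KDM5C, Jumonji erasers of H3K4 trimethylation, did not reach the fold limit in any line. KDM5A differed from the fibroblasts by -0.03 in CRES-1 to 0.71 in RiPS2, and KDM5C by 0.13 in CRES-1 to 0.88 in RiPS1. KDM5C passed the adjusted p in 5 of the 6 lines, all but CRES-1, where its adjusted p was 0.431.

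**Figure D3:**
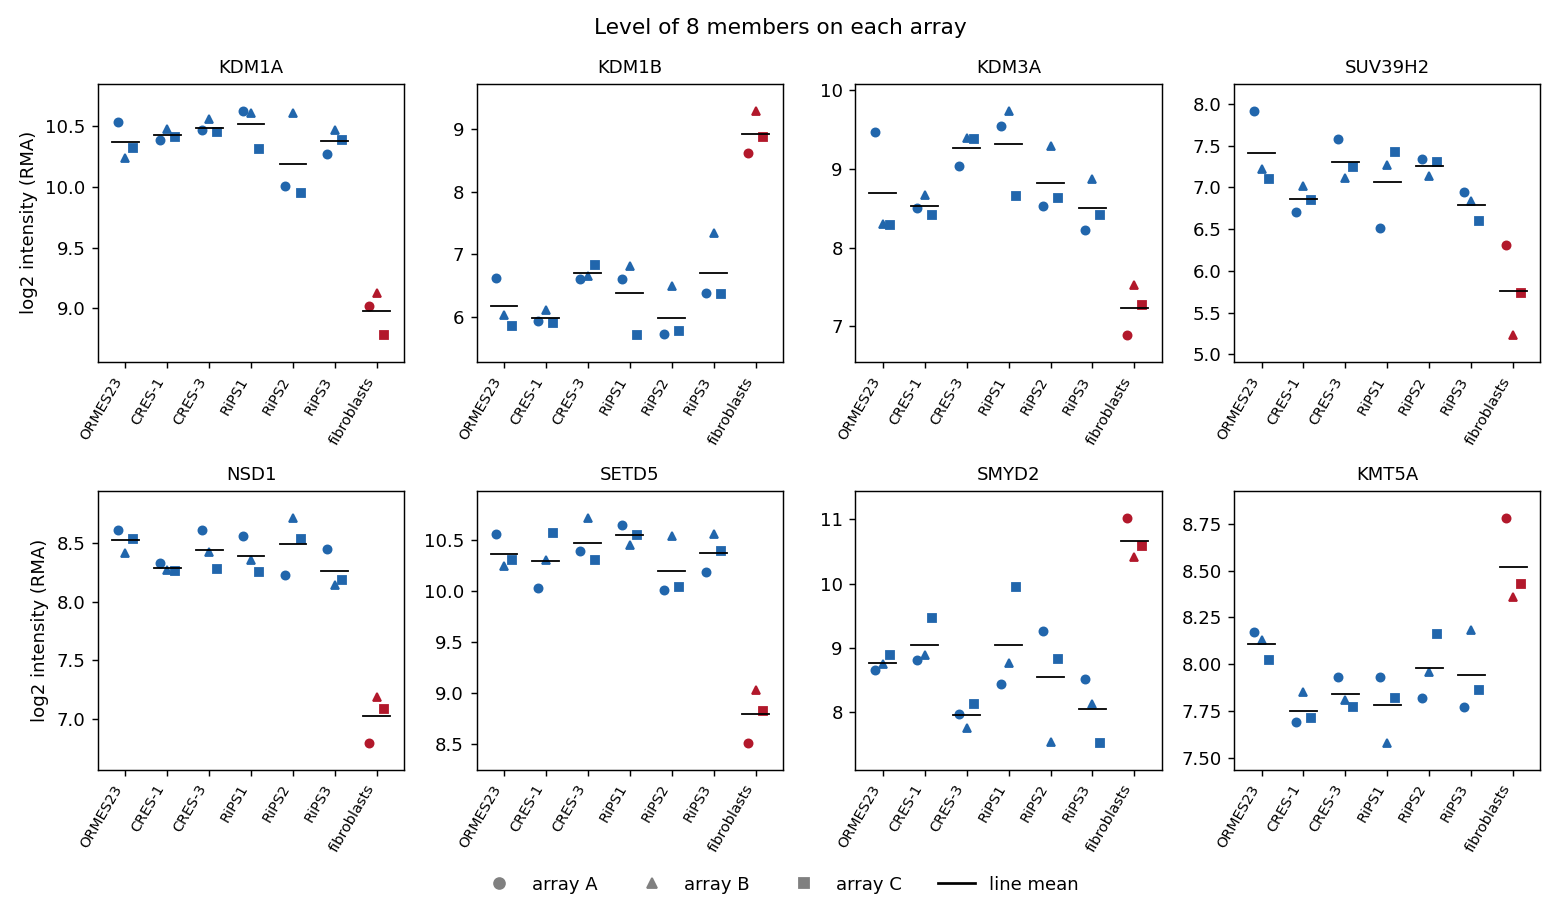
Log2 intensity of 8 members on each of the 3 arrays (circle, triangle and square for A, B and C) of 6 pluripotent lines (blue) and skin fibroblasts (red), with the line mean as a bar; each panel has its own axis, which does not start at 0. KDM1A, KDM3A, SUV39H2, NSD1 and SETD5 were higher on every pluripotent array than on any fibroblast array, and KDM1B, SMYD2 and KMT5A lower.

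Among the writers of H3K4 methylation, those of the KMT2 family and SETD1A showed smaller differences. Each gene was placed in a single class, although some act on several residues. Of 7 genes tested in this class, SMYD2 fell in all 6 lines and SMYD3 in RiPS2. The only rise was that of KMT2D, a writer of the mono-methyl mark at enhancers, by 1.02 in RiPS2. Its differences in the other lines ran from 0.72 to 0.94. The RiPS2 value was under the fold limit without array A of RiPS2 (0.99) or array A of the fibroblasts (0.91), and with median centring (0.99). KMT2A (MLL1), which acts at promoters of developmental genes, differed by 0.49 to 0.96, and SETD1A, a catalytic subunit of a COMPASS complex, by 0.43 to 0.68. As read from their brightest probe sets, both passed the adjusted p in all 6 lines without reaching the fold limit. Averaged over the pluripotent lines, a second KMT2A probe set (mean 8.61) differed by 1.11. Other KMT2A probe sets ranged from -0.01 to 2.69, the last with a fibroblast mean of 2.87, under log2 5. KMT2B differed by 0.10 to 0.44. KMT2C, the other enhancer enzyme, differed by -0.36 in CRES-1 and 0.45 to 0.66 elsewhere. It read 6.04, 6.76 and 4.66 on the CRES-1 arrays, and the low array C set its CRES-1 mean apart from the other lines.

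SMYD2, a lysine methyltransferase that acts on histones and on p53, fell in all 6 lines. SMYD2 read 8.65, 8.75 and 8.88 in ORMES23, 8.81, 8.88 and 9.46 in CRES-1, 7.96, 7.75 and 8.13 in CRES-3, 8.43, 8.77 and 9.95 in RiPS1, 9.26, 7.53 and 8.83 in RiPS2, 8.51, 8.13 and 7.52 in RiPS3, and 11.02, 10.41 and 10.58 in the fibroblasts. The fibroblast arrays were above all others, and the arrays of RiPS1, RiPS2 and RiPS3 spread by more than 0.9 log2 within a line. Its log2 differences were -1.91 in ORMES23, -1.62 in CRES-1, -2.72 in CRES-3, -1.62 in RiPS1, -2.13 in RiPS2 and -2.62 in RiPS3 (SE 0.39), 3.07 to 6.61-fold lower, with limma adjusted p of 9.39e-06 to 0.00177. It has a single probe set. SMYD3, a paralogue known to methylate a kinase of the MAP kinase pathway, fell in RiPS2 alone and is described with the comparison of pluripotent lines.

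Among the writers of H3K9 methylation, rises were shared unevenly between enzymes and lines. Of 6 tested, 3 rose in ORMES23, RiPS2 and RiPS3, 4 in CRES-3, 2 in RiPS1 and 1 in CRES-1, and none fell. Over all genes tested 16.4% to 19.3% rose and 13.5% to 14.6% fell, and the 1 of 6 in CRES-1 (16.7%) is close to that line's share of 16.4%. SUV39H2, a writer of H3K9 trimethylation at pericentric heterochromatin, rose in every line. SUV39H2 read 7.92, 7.22 and 7.10 in ORMES23, 6.71, 7.02 and 6.85 in CRES-1, 7.58, 7.11 and 7.24 in CRES-3, 6.51, 7.27 and 7.42 in RiPS1, 7.34, 7.14 and 7.31 in RiPS2, 6.94, 6.84 and 6.60 in RiPS3, and 6.31, 5.23 and 5.73 in the fibroblasts. The pluripotent arrays were all higher, the closest being array A of RiPS1, and the fibroblast arrays spread over more than 1 log2. Differences of SUV39H2 were 1.65 in ORMES23, 1.10 in CRES-1, 1.55 in CRES-3, 1.31 in RiPS1, 1.50 in RiPS2 and 1.03 in RiPS3 (log2, SE 0.26), 2.05 to 3.15-fold, with limma adjusted p of 3e-05 to 0.00243. Without array B of the fibroblasts it differed by 0.84 in CRES-1 and 0.77 in RiPS3, below the fold limit, as it did in RiPS3 without array A of that line (0.96) and with median centring (0.95).

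SUV39H1, its X-linked paralogue, read 7.65, 7.82 and 8.07 in ORMES23, 7.79, 7.58 and 8.08 in CRES-1, 7.69, 7.59 and 7.62 in CRES-3, 8.32, 8.15 and 8.65 in RiPS1, 7.99, 7.96 and 7.98 in RiPS2, 7.84, 7.52 and 7.75 in RiPS3, and 8.31, 6.92 and 7.55 in the fibroblasts. Arrays of every line overlapped the fibroblast range. SUV39H1 differed by 0.25 in ORMES23, 0.22 in CRES-1, 0.04 in CRES-3, 0.78 in RiPS1, 0.38 in RiPS2 and 0.11 in RiPS3 (log2, SE 0.24), and passed the limma adjusted p in RiPS1 alone (0.00902), without the fold limit.

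EHMT2 (G9a) and EHMT1 (GLP), which form a heterodimer that writes mono- and dimethyl H3K9, were both higher. EHMT2 read 9.28, 9.25 and 9.39 in ORMES23, 8.78, 9.10 and 9.11 in CRES-1, 9.70, 9.64 and 9.48 in CRES-3, 9.26, 9.24 and 9.0 in RiPS1, 9.09, 9.48 and 9.34 in RiPS2, 9.22, 9.11 and 9.40 in RiPS3, and 8.53, 7.81 and 8.17 in the fibroblasts. No array overlapped the fibroblasts. EHMT2 differed by 1.14 in ORMES23, 0.82 in CRES-1, 1.43 in CRES-3, 0.99 in RiPS1, 1.13 in RiPS2 and 1.07 in RiPS3 (log2, SE 0.16, limma adjusted p 3.43e-07 to 0.000203), so it was called in 4 lines, with RiPS1 just under the fold limit. Without array B of the fibroblasts it lost the fold limit in ORMES23 (0.96), RiPS2 (0.95) and RiPS3 (0.89), and in RiPS3 also without array C of that line (0.99) and with median centring (0.99). EHMT1 differed by 0.62 to 1.18 and was called in CRES-3 alone.

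SETDB1, the writer of H3K9 trimethylation recruited by TRIM28 to silence endogenous retroviruses, rose in 5 lines. SETDB1 read 8.63, 8.46 and 8.58 in ORMES23, 8.32, 8.39 and 8.35 in CRES-1, 8.68, 8.69 and 8.58 in CRES-3, 8.51, 8.44 and 8.31 in RiPS1, 8.46, 8.86 and 8.60 in RiPS2, 8.51, 8.62 and 8.69 in RiPS3, and 7.28, 7.59 and 7.33 in the fibroblasts. The groups did not overlap and the spread within each line was small. SETDB1 differed by 1.16 in ORMES23, 0.95 in CRES-1, 1.25 in CRES-3, 1.02 in RiPS1, 1.24 in RiPS2 and 1.21 in RiPS3 (log2, SE 0.11, limma adjusted p 2.08e-08 to 7.69e-07). In RiPS1 its rise was called by a small margin, and without array A of RiPS1 (0.98) or array A (0.96) or C (0.99) of the fibroblasts, or with median centring (0.88), it was below the fold limit. SETDB2 differed by 0.12 to 0.94 and was called in no line.

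On the fibroblast arrays, 5 of these 6 writers (SUV39H1, SUV39H2, EHMT1, EHMT2 and SETDB2) followed the order of the proliferation markers, highest on A, then C, then B. Their ranges over these arrays were 1.40, 1.08, 0.12, 0.71 and 0.69. That of EHMT1 was below the median SD of members in the fibroblasts (0.23), so its order says little. SETDB1 had the opposite order. The order of the proliferation markers was found in 9 of 36 members (25.0%) and in 27.1% of all genes tested. The opposite order held for 15 members (41.7%) and 22.9% of all genes. The part of proliferation in these differences was not tested.

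**Figure D4:**
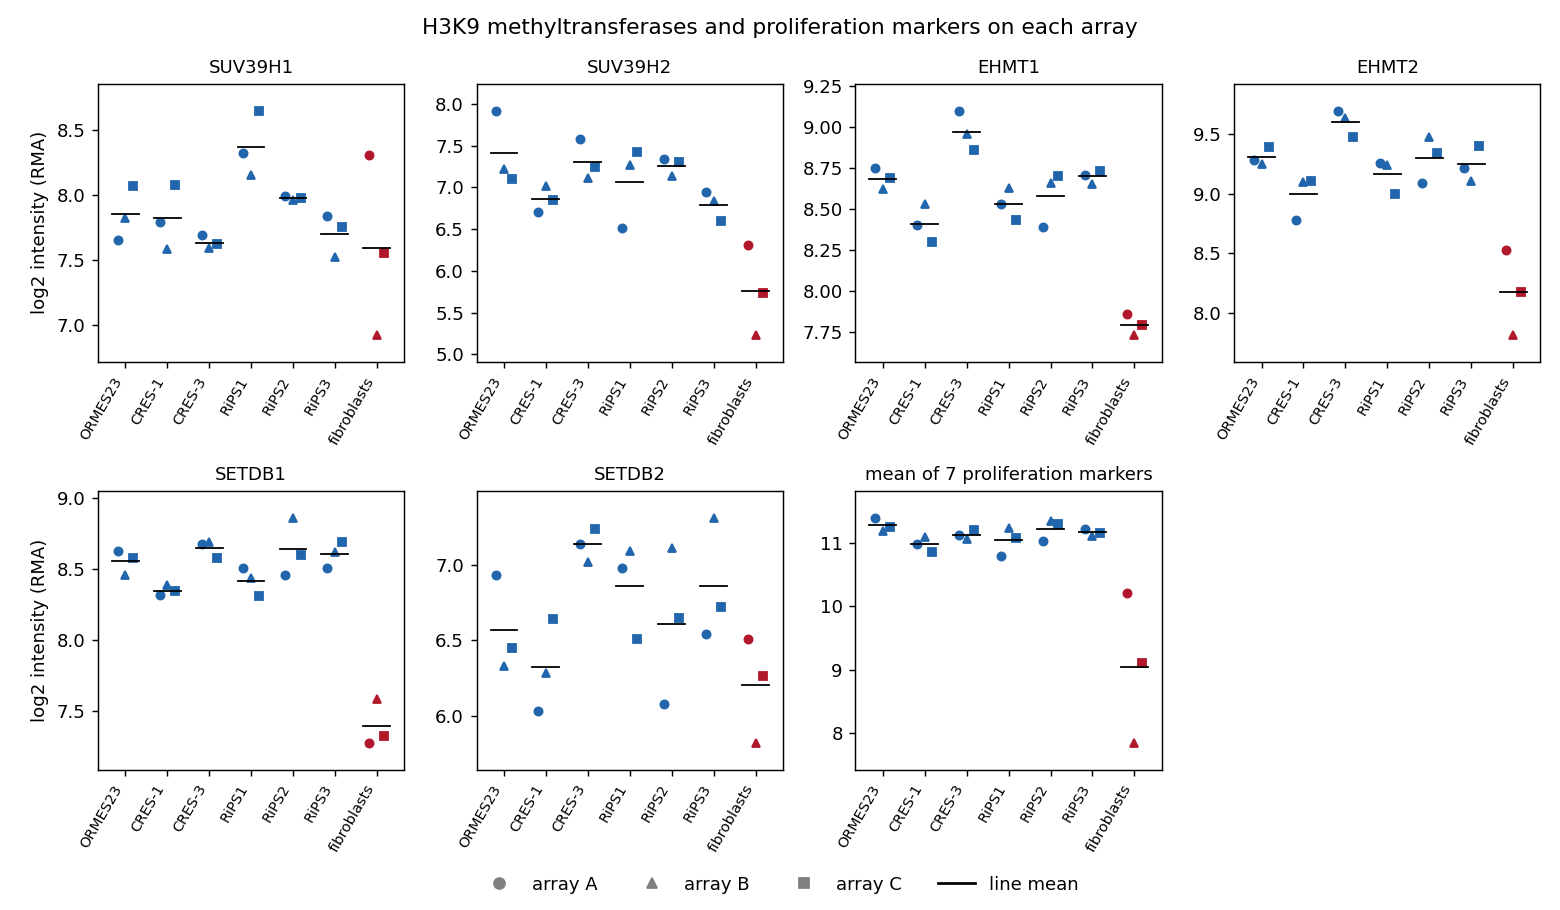
Log2 intensity of the 6 H3K9 methyltransferases and the mean of 7 proliferation markers on each array (circle, triangle and square for A, B and C) of the pluripotent lines (blue) and fibroblasts (red), with line means as bars; each panel has its own axis, which does not start at 0. The fibroblast arrays of all but SETDB1 lie in the order of the proliferation markers, which read 10.21, 7.85 and 9.10 on arrays A, B and C. Those of EHMT1 span only 0.12.

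Of the 6 tested erasers of H3K9 methylation, 3 to 5 rose in each line (50% to 83.3%, against 16.4% to 19.3% of all genes) and none fell (against 13.5% to 14.6%). Their median log2 difference ran from 1.09 in RiPS3 to 1.46 in CRES-3. KDM3A, a Jumonji enzyme that removes mono- and dimethyl H3K9, read 9.47, 8.30 and 8.29 in ORMES23, 8.50, 8.67 and 8.41 in CRES-1, 9.04, 9.39 and 9.38 in CRES-3, 9.55, 9.74 and 8.66 in RiPS1, 8.53, 9.29 and 8.63 in RiPS2, 8.23, 8.87 and 8.42 in RiPS3, and 6.89, 7.53 and 7.27 in the fibroblasts. Array A of ORMES23 and array C of RiPS1 stood apart from the others of their lines, and no array reached the fibroblast range. KDM3A differed by 1.46 in ORMES23, 1.30 in CRES-1, 2.04 in CRES-3, 2.09 in RiPS1, 1.59 in RiPS2 and 1.28 in RiPS3 (log2, SE 0.31), 2.43 to 4.25-fold, with limma adjusted p of 1.5e-05 to 0.00175. Its further 2 probe sets averaged 1.20 and 1.38 higher in the pluripotent lines.

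KDM3B, a paralogue of the same substrate range, read 9.85, 9.62 and 8.94 in ORMES23, 8.95, 9.42 and 9.41 in CRES-1, 9.33, 9.26 and 9.81 in CRES-3, 9.23, 9.59 and 9.36 in RiPS1, 9.29, 9.75 and 9.42 in RiPS2, 9.70, 9.77 and 9.30 in RiPS3, and 7.95, 8.17 and 7.84 in the fibroblasts. All pluripotent arrays were higher. KDM3B differed by 1.48 in ORMES23, 1.27 in CRES-1, 1.48 in CRES-3, 1.41 in RiPS1, 1.50 in RiPS2 and 1.61 in RiPS3 (log2, SE 0.22), 2.42 to 3.05-fold, with limma adjusted p of 4.97e-06 to 7.13e-05.

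KDM4A, which removes trimethyl groups from H3K9 and H3K36, read 9.09, 9.10 and 9.36 in ORMES23, 8.90, 9.23 and 7.96 in CRES-1, 9.29, 9.71 and 9.34 in CRES-3, 9.67, 9.26 and 9.40 in RiPS1, 9.05, 9.54 and 9.27 in RiPS2, 9.05, 9.25 and 9.09 in RiPS3, and 7.32, 7.92 and 7.98 in the fibroblasts. Array C of CRES-1 lay within the fibroblast range and the other pluripotent arrays above it. KDM4A differed by 1.44 in ORMES23, 0.96 in CRES-1, 1.71 in CRES-3, 1.70 in RiPS1, 1.55 in RiPS2 and 1.39 in RiPS3 (log2, SE 0.25, limma adjusted p 1.05e-05 to 0.00299) and was called in every line but CRES-1. Its paralogue KDM4C differed by 0.45 to 1.13 and was called in CRES-3, and KDM4B differed by 0.39 to 0.91 and was called in no line.

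KDM7A, which acts on dimethyl H3K9 and H3K27, read 8.05, 7.69 and 7.66 in ORMES23, 7.41, 7.65 and 7.97 in CRES-1, 7.85, 7.71 and 7.95 in CRES-3, 7.77, 7.73 and 7.72 in RiPS1, 7.07, 7.71 and 7.07 in RiPS2, 7.55, 7.22 and 7.10 in RiPS3, and 5.68, 6.72 and 6.79 in the fibroblasts. The fibroblast array A was lower than B and C by about a log2 unit, and no pluripotent array overlapped them. KDM7A differed by 1.41 in ORMES23, 1.28 in CRES-1, 1.44 in CRES-3, 1.35 in RiPS1, 0.89 in RiPS2 and 0.90 in RiPS3 (log2, SE 0.24, limma adjusted p 5.2e-05 to 0.00426), so it was called in ORMES23, both cloned lines and RiPS1. Without fibroblast array A, it was below the fold limit in CRES-1 (0.92) and RiPS1 (0.99).

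KDM6B (JMJD3), a demethylase of H3K27 trimethylation and the only one of its class here, differed by 0.34 to 0.87, on low levels of 4.61 to 5.83. Its fibroblast arrays read 4.83, 4.82 and 4.61, all under log2 5, so it passed the filter through pluripotent arrays alone. Its differences are therefore no measured ratios. KDM6B was called in no line, and its pass of the adjusted p in 5 carries the same limit.

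The H3K36 writers were higher. NSD1, which writes the dimethyl mark between genes and over gene bodies, rose in every line. NSD1 read 8.61, 8.41 and 8.53 in ORMES23, 8.33, 8.27 and 8.26 in CRES-1, 8.61, 8.42 and 8.28 in CRES-3, 8.56, 8.35 and 8.25 in RiPS1, 8.23, 8.71 and 8.53 in RiPS2, 8.45, 8.14 and 8.18 in RiPS3, and 6.80, 7.19 and 7.09 in the fibroblasts. Groups did not overlap, with more than 0.9 log2 between the lowest pluripotent and the highest fibroblast array. NSD1 differed by 1.49 in ORMES23, 1.26 in CRES-1, 1.41 in CRES-3, 1.36 in RiPS1, 1.46 in RiPS2 and 1.23 in RiPS3 (log2, SE 0.14), 2.35 to 2.81-fold, with limma adjusted p of 4.84e-08 to 5.45e-07. NSD3 differed by 0.53 to 1.15 and was called in ORMES23, CRES-3 and RiPS1, but not with the mean of its probe sets in any of them. It also missed the fold limit with median centring in ORMES23 (0.92) and CRES-3 (0.98). The same held without array A of ORMES23 (0.86), array B (0.91) or C (0.96) of the fibroblasts in ORMES23, and array A of RiPS1 in RiPS1 (0.98). Without array B of the fibroblasts its CRES-3 value also missed the fold limit, by less than rounding shows (1.00). SETD2, which writes the trimethyl mark with RNA polymerase II, differed by 0.53 to 0.97 and was called in no line from its brightest probe set. Its second probe set averaged 1.36 higher in the pluripotent lines, on a fibroblast mean of 4.16, under log2 5. The erasers KDM2A, which binds unmethylated CpG islands, and KDM8 differed by -0.24 to 0.36 and passed the adjusted p in no line.

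The H4K20 writers differed from the fibroblasts in opposite directions. KMT5B, which writes the di- and trimethyl marks, rose in every line. KMT5B read 9.32, 9.49 and 9.61 in ORMES23, 9.18, 9.23 and 9.46 in CRES-1, 9.68, 9.47 and 9.60 in CRES-3, 9.85, 9.51 and 9.68 in RiPS1, 9.72, 9.44 and 9.60 in RiPS2, 9.56, 9.42 and 9.22 in RiPS3, and 7.74, 8.45 and 8.27 in the fibroblasts. The groups did not overlap. KMT5B differed by 1.32 in ORMES23, 1.14 in CRES-1, 1.43 in CRES-3, 1.53 in RiPS1, 1.43 in RiPS2 and 1.25 in RiPS3 (log2, SE 0.16), 2.20 to 2.89-fold, with limma adjusted p of 1.73e-07 to 6.91e-06. Its further probe sets went the other way, by -0.20 and -0.81, and with all probe sets averaged KMT5B was called in no line. Without array A of the fibroblasts its CRES-1 difference was 0.93. KMT5A, which writes the mono-methyl mark in each cell cycle, was lower by less than the fold limit, differing by -0.42 in ORMES23, -0.77 in CRES-1, -0.68 in CRES-3, -0.75 in RiPS1, -0.55 in RiPS2 and -0.59 in RiPS3 (log2, SE 0.14, limma adjusted p 8.53e-05 to 0.0128). Its arrays in every pluripotent line lay below every fibroblast array, and all 3 of its probe sets had the same sign.

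Of the 5 SET-domain genes placed in no class, SETD5, whose own catalytic activity is disputed, rose in every line. SETD5 read 10.56, 10.25 and 10.31 in ORMES23, 10.03, 10.31 and 10.57 in CRES-1, 10.40, 10.72 and 10.31 in CRES-3, 10.65, 10.46 and 10.55 in RiPS1, 10.01, 10.54 and 10.04 in RiPS2, 10.19, 10.56 and 10.40 in RiPS3, and 8.51, 9.03 and 8.82 in the fibroblasts. Every pluripotent array was at least 0.9 log2 above the highest fibroblast array. SETD5 differed by 1.59 in ORMES23, 1.51 in CRES-1, 1.69 in CRES-3, 1.77 in RiPS1, 1.41 in RiPS2 and 1.60 in RiPS3 (log2, SE 0.18), 2.65 to 3.40-fold, with limma adjusted p of 1.13e-07 to 1.95e-06. SETD6, which methylates the NF-kappa-B subunit RELA, differed by 0.63 to 1.28 and was called in ORMES23 (not with median centring, 0.95), CRES-3 and RiPS2. SETD3, a histidine methyltransferase of actin, differed by 0.34 to 0.71, SETD9 by 0.24 to 0.65 and SETD4 by -0.01 to 0.23, with no call. A second SETD3 probe set averaged 1.31 higher in the pluripotent lines, and its others differed by 0.08 and -0.03.

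Of the 38 members, 26 had more than 1 probe set, 98 in all. Among the further probe sets that passed the filter, 41 of 49 had the sign of the brightest one and 8 the opposite sign, 3 of them where the brightest differed by log2 1 or more. Those 3 belong to KDM1B and KMT5B. With all probe sets of a gene averaged, EHMT2 (0.80 to 0.91) and SETDB1 (0.55 to 0.79) kept their direction but missed the fold limit in each line where they had risen. KDM7A did so in ORMES23 (0.92), CRES-1 (0.70) and RiPS1 (0.96), KDM4A in ORMES23 (0.99), EHMT1 in CRES-3 (0.56) and KMT2D in RiPS2 (0.59). Averaging also gave calls that the brightest probe sets had not. Of 10 members called in ORMES23 with averaged probe sets, 8 had the same call with the brightest one. This held for 11 of 12 in CRES-3, 8 of 9 in RiPS1 and 10 of 12 in RiPS2. In CRES-1 and RiPS3 it held for all 8.

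Partners of these enzymes were read from 4 lists, whose counts stand beside 16.4% to 19.3% of all genes that rose and 13.5% to 14.6% that fell. Of 9 COMPASS and MLL subunits tested (13 listed), 1 rose in each line but CRES-1 and 1 fell in each (11.1%), which is no more than over all genes. The rise was that of DPY30, a core subunit (0.95 to 1.23), and the fall that of HCFC2 (-1.93 to -1.54). RBBP5 and CXXC1 differed by -0.26 to 0.65 and by 0.03 to 0.75 with no call. Of 11 tested partners of H3K9 silencing (12 listed), 4 to 6 rose in each line and none fell. The heterochromatin protein CBX1 (1.89 to 2.36), the SETDB1 cofactor ATF7IP (1.21 to 1.64), ZNF644 (1.84 to 2.18), a partner of EHMT2, and TRIM28 (1.03 to 1.39) rose in every line. Of 9 tested members of the KDM1A complex (12 listed), 5 rose in RiPS1 and 3 in each other line, and none fell. HDAC2 (1.75 to 2.07), ZMYM3 (2.02 to 2.36) and ZMYM2 (1.92 to 2.32) rose in every line, and RCOR3, a CoREST paralogue, in RiPS1 alone (1.44).

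A last list held 27 enzymes or cofactors of the same chemistry with other names, of which 16 were tested. Of these, 4 to 6 rose in each line (25.0% to 37.5%) and 1 to 4 fell (6.25% to 25.0%). JARID2, a Polycomb-associated Jumonji protein without demethylase activity, rose by 3.37 to 3.60, and JMJD1C, of the KDM3 family, by 2.08 to 2.45. PRDM14, a pluripotency regulator, and MECOM averaged under log2 5 in the fibroblasts (4.92 and 3.86), so their differences there of 3.07 to 4.42 and of 2.60 to 4.14 are no measured ratios. Both are among the 16 tested, so the shares that rose carry the same limit and are not read as a result about this list.

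Among the 6 pluripotent lines, none of the 36 members was called by limma in any of 7 pairwise comparisons. Of all genes, 0% were called in CRES-1, 0.996% in CRES-3, 2.4% in RiPS1, 0.458% in RiPS2 and 0.763% in RiPS3 against ORMES23, 2.14% in CRES-1 against RiPS1 and 0.0359% in CRES-3 against RiPS3. At an unadjusted p under 0.05, 6 members stood out in CRES-1 (16.7%, against 11.4% of all genes), 7 in CRES-3 (19.4%, against 16.9%) and 7 in RiPS1 (19.4%, against 20.8%), each compared with ORMES23. There were 4 in RiPS2 (11.1%, against 11.9%) and 4 in RiPS3 (11.1%, against 14.6%). CRES-1 against RiPS1 gave 9 (25.0%, against 22.0%). These shares lay near those of all genes, and that of CRES-3 against RiPS3 was higher, with 8 members (22.2%, against 7.91%), none of which passed the adjusted p. These comparisons share ORMES23 or another line.

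At the adjusted p alone, without the fold limit, KDM4C was higher in CRES-3 than in ORMES23 by 0.68 (limma adjusted p 0.0447, where 2.51% of all genes passed). Without any of the 6 arrays of these lines its adjusted p was 0.0663 to 0.186, and with median centring it was 0.0508. In RiPS1 against ORMES23, SMYD3 was higher by 0.64 and KMT2A lower by -0.46 (8.34% of all genes passed), and in RiPS2 SMYD3 was lower by -0.94 (0.942% passed). KMT2A missed the threshold without array C of ORMES23 (0.0656) or array A of RiPS1 (0.0763), and with the mean of its probe sets (-0.32, adjusted p 0.345). For CRES-1 against RiPS1, KDM5C was lower by -0.76 (limma adjusted p 0.00194), SMYD3 by -0.68 (0.00194) and KDM5A by -0.46 (0.0474), where 7.15% of all genes passed. No member passed in CRES-1 or RiPS3 against ORMES23 (0% and 1.95% of all genes) or in CRES-3 against RiPS3 (0.0718%). With the replicate block KDM5A no longer passed in that comparison (adjusted p 0.0679), and it passed without array B of RiPS1 but with no other array of these lines left out (0.0529 to 0.185).

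SMYD3 was the only member called by the test of any difference among the 6 lines, limma's moderated F (limma adjusted p 4.55e-06, range of line means 1.58), against 7.52% of all genes. SMYD3 read 9.03, 8.97 and 8.92 in ORMES23, 8.80, 8.95 and 9.05 in CRES-1, 9.14, 9.12 and 9.09 in CRES-3, 9.76, 9.60 and 9.47 in RiPS1, 7.83, 8.22 and 8.04 in RiPS2, 8.94, 9.29 and 9.08 in RiPS3, and 9.26, 9.18 and 9.02 in the fibroblasts. RiPS2 was the lowest line on every array and RiPS1 the highest, with the other 4 pluripotent lines and the fibroblasts between them. Its second probe set, which shares the base name of the first, had the same order at the ends: 7.68 ± 0.09 in RiPS1, 6.03 ± 0.27 in RiPS2 (SD, n = 3) and 6.92 to 7.11 in the others. Against the fibroblasts SMYD3 differed by -0.18 in ORMES23, -0.22 in CRES-1, -0.04 in CRES-3, 0.45 in RiPS1, -1.13 in RiPS2 and -0.05 in RiPS3 (log2, SE 0.12), and its fall in RiPS2 had a limma adjusted p of 2.3e-07.

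Without the fold limit 6 members passed this test (17.1% of all genes did). Beside SMYD3 these were KDM5C (range 0.76, highest in RiPS1, lowest in CRES-1, limma adjusted p 0.00273), KDM5A (0.74, RiPS2 to CRES-1, 0.0104), EHMT1 (0.56, CRES-3 to CRES-1, 0.0127), SETD6 (0.65, CRES-3 to RiPS1, 0.0136) and KMT2A (0.46, ORMES23 to RiPS1, 0.0406). CRES-1 was thus the lowest line for 3 of the 6. With the replicate block KMT2A no longer passed (adjusted p 0.0584). With the mean of each gene's probe sets, KDM5A (0.113), EHMT1 (0.523) and KMT2A (0.162) did not pass and KDM4A did (0.0369).

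**Figure D5:**
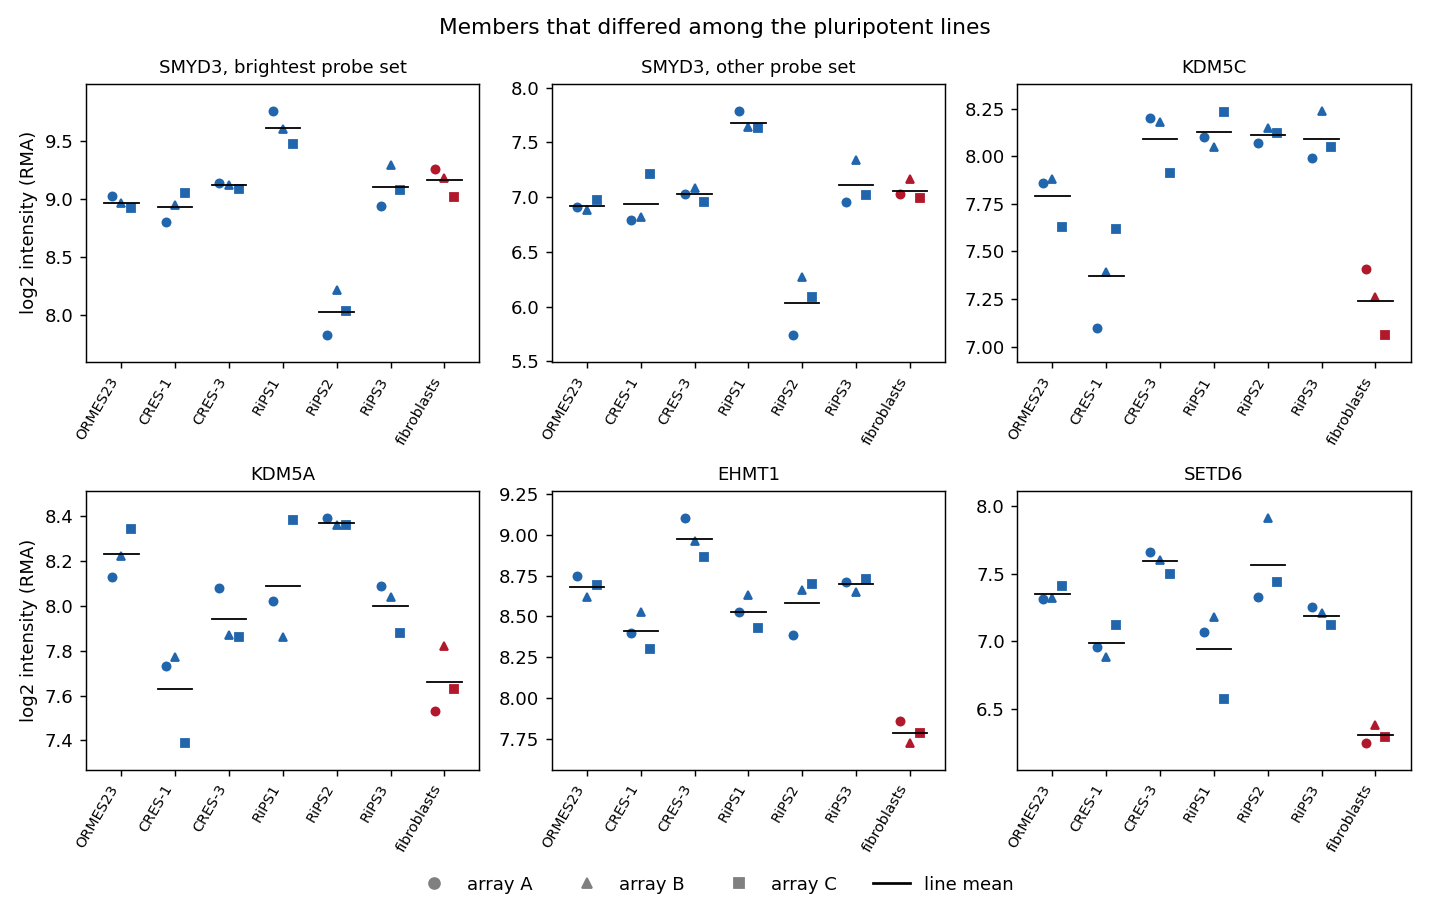
Log2 intensity of SMYD3 (both probe sets), KDM5C, KDM5A, EHMT1 and SETD6 on each array (circle, triangle and square for A, B and C) of the pluripotent lines (blue) and skin fibroblasts (red), with line means as bars; each panel has its own axis, which does not start at 0. SMYD3 is lowest in RiPS2 and highest in RiPS1 on both probe sets, and KDM5C, KDM5A and EHMT1 are lowest in CRES-1 among the pluripotent lines.

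The comparison of CRES-1 with RiPS1, a cloned and an induced male line, was set against that of CRES-3 with RiPS3, a cloned and an induced female line. KDM5C read 7.86, 7.88 and 7.63 in ORMES23, 7.10, 7.39 and 7.62 in CRES-1, 8.20, 8.18 and 7.91 in CRES-3, 8.10, 8.05 and 8.23 in RiPS1, 8.07, 8.15 and 8.12 in RiPS2, 7.99, 8.24 and 8.05 in RiPS3, and 7.41, 7.26 and 7.06 in the fibroblasts. CRES-1 lay below RiPS1 on all arrays, and CRES-3 and RiPS3 shared a range. KDM5C differed between the pairs by -0.75 (SE 0.19, limma adjusted p 0.0279) and SMYD3 by -0.69 (SE 0.17, adjusted p 0.0248), among 543 of 11143 genes at this threshold (4.87%). With median centring neither passed (adjusted p 0.071 for KDM5C and 0.0616 for SMYD3), nor did either without array A of CRES-1, A or B of CRES-3, A or B of RiPS1, or A or C of RiPS3 (0.0502 to 0.0841). Each pair holds single lines, and the donor of RiPS1 was a fetus and that of RiPS3 was 8 years old. Line, sex, donor age and route of derivation thus cannot be told apart.

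KDM5C and SUV39H1 lie on the X chromosome, as does PHF8, a demethylase outside the name rule. The mean of KDM5C over the 3 female lines was 8.10, against 7.76 over the 3 male lines, a difference of 0.34 (exact permutation test over line means, two-sided, p = 0.4). For SUV39H1 the means were 7.77 and 8.01, a difference of -0.24 (exact p = 0.4), and for PHF8 8.01 and 8.19, a difference of -0.18 (exact p = 0.6). Adjusted over the 3 tests each p was 0.6, and 3 against 3 lines cannot give an exact p below 0.1. The line means of the sexes overlapped: the male line CRES-1 had the lowest mean of KDM5C (7.37) and the male line RiPS1 the highest (8.13).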

How the data were processed

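Messenger RNA of 7 rhesus macaque lines was measured with 3 arrays each. Per the labels, the authors summarized probe intensities by RMA, and the deposited table holds log2 values. Its version is not given in the sources used here. The 52865 probe sets spanned 2.09 to 14.7, array medians spanned 4.98 to 5.14, and 2 arrays correlated at 0.996 at most. Precision is limited by the small number of arrays. Symbols came from the platform annotation (24969 probe sets with 1 symbol, 361 with several, 27535 with none). They were replaced by the RefSeq symbol of the same gene identifier where there was one, while members were chosen by the annotation's own symbols. Only probe sets with 1 symbol were used, the brightest per gene. RefSeq sequences were not used here.

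In R 4.3.3, limma 3.58.1 fitted the differences with a mean per line (14 residual degrees of freedom), empirical Bayes moderation and Benjamini-Hochberg adjustment over 11143 genes. The fit was tested on simulated data. Full values are given for members called in the same direction against fibroblasts in at least 4 lines, called among pluripotent lines, or X-linked; partner genes named are up to 4 a list with the smallest F-test p. Members, classes and lists were chosen with earlier results of these data known. The difference between the 2 cloned-minus-induced comparisons was added after seeing the data. Alternatives were median centring, no or a stricter filter, the mean of a gene's probe sets, trended robust moderation, a replicate block, only the arrays compared, and each array left out. Replicate letters paired arrays in 1 of 13 comparisons, CRES-1 against RiPS1, where same-letter deviations correlated at 0.32 to 0.35. Over all comparisons the correlations ran from -0.40 to 0.44. The main fit did not model that pairing, and the replicate block gave each letter the same effect in every line.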

Additional observations from a re-analysis of the deposited data

Results flagged for a closer look

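The difference between CRES-1 and RiPS1 and that between CRES-3 and RiPS3 were unlike for 2 members by limma's interaction test. KDM5C differed by -0.75 between the pairs (-0.76 in the male pair and 0.00 in the female pair, adjusted p 0.0279). SMYD3 differed by -0.69 (-0.68 and 0.01, adjusted p 0.0248). In all, 9 members had an unadjusted p under 0.05 (25.0%, against 20% of all genes), and 543 of 11143 genes (4.87%) passed the adjusted threshold. With each array centred on its median neither gene passed: KDM5C differed by -0.60 (adjusted p 0.071) and SMYD3 by -0.53 (adjusted p 0.0616). Leaving out array A of CRES-1, A or B of CRES-3, A or B of RiPS1, or A or C of RiPS3 also put both above the threshold, with adjusted p of 0.0502 to 0.0841 for KDM5C and 0.0521 to 0.0769 for SMYD3. The cause was not tested.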

How the results depend on the processing

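Each array was left out in turn, and the members called against fibroblasts then numbered 14 to 16 for ORMES23, 9 to 11 for CRES-1, 17 to 18 for CRES-3, 11 to 14 for RiPS1, 14 to 16 for RiPS2 and 11 to 13 for RiPS3. Among the pluripotent lines the count ran from 0 to 2 for CRES-1 against RiPS1 (KDM4A and KMT2C without CRES-1 array B, KDM3A without RiPS1 array C). It ran from 0 to 1 for RiPS1 against ORMES23 (KDM3A without ORMES23 array A) and for RiPS2 against ORMES23 (SMYD3 without RiPS2 array B). For any difference among the 6 lines it ran from 1 to 2 (KDM3A without ORMES23 array A, KMT2C without CRES-1 array B, SMYD2 without RiPS2 array B). The replicate block left the counts of called members as they were: 15, 10, 17, 13, 15 and 12 against fibroblasts in the line order above, and 1 for any difference among the pluripotent lines. Without the fold limit it moved the members that passed against fibroblasts from 25 to 24 in CRES-1 (NSD3), 29 to 28 in CRES-3 (SETD9), 27 to 28 in RiPS2 (KDM4B gained) and 27 to 25 in RiPS3 (KDM5A and SETD9). It ended KDM5A in CRES-1 against RiPS1 and KMT2A in the test of any difference.

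With the mean of all probe sets of a gene, 10, 8, 12, 9, 12 and 8 members were called against fibroblasts, 28 of 82 called member results missed the threshold or the fold limit, and KMT5B in RiPS3 turned to -0.13 (adjusted p 0.596). Median centring gave 13, 10, 16, 12, 14 and 10, with 7 of the 82 under the fold limit. It moved the median of all genes by -0.12 in CRES-3 and -0.14 in RiPS1 against fibroblasts, and by 0.12 in CRES-1 against RiPS1. Neither filter, nor trended robust moderation, nor only the arrays compared changed a called member result against fibroblasts. KDM5A (CRES-1 against RiPS1) missed the adjusted p under 6 of the planned settings beside the left-out arrays, and SMYD3 (RiPS2 against ORMES23) with only the arrays compared (0.0725). Levels under log2 5 lie near background, which limits KMT5C, SMYD1 and KDM6B.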
